A study of Pilatotrama ljubarskyi with 14 samples.

Results

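Gene expression of Trametes ljubarskyi BRFM1659, a white-rot fungus (listed under the genus name Pilatotrama in the organism field), was compared between mycelium grown with ground pine wood and mycelium grown with Avicel, a microcrystalline cellulose. Of the 878 genes in the deposited table, 845 had a level of at least 4 on pine or on cellulose, and these are the genes described here. A level is the mean over the libraries of a substrate of log2(normalized reads + 1). Of the 845 genes, 825 reached a level of 4 on both substrates, 10 on pine alone and 10 on cellulose alone. The 3 genes just inside the limit had 4.14, 4.17 and 4.17 as the higher of their pine and cellulose levels, and the 3 just outside had 3.93, 3.84 and 3.78.

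The pine group had 2 libraries and the aspen, wheat straw, cellulose and maltose groups had 3 each, which gives 14 in all. Every culture was shaken at 120 rpm and 30 °C for 3 days, with 100 ml of a mineral medium with yeast extract in a 250-ml flask. The pine, aspen, wheat straw and cellulose cultures each received their solid at 15 g/l on top of soluble maltose, given as 2.5 g/l for pine, wheat straw and cellulose and not readable for aspen. The maltose cultures had maltose at 20 g/l and no solid. Pine and wheat straw were sifted to fragments under 2 mm and aspen was milled to 1 mm. PolyA RNA was sequenced. Whether each library had its own culture is not stated in the labels, so p-values measure only the spread between these libraries, which may be technical.

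White-rot fungi are basidiomycetes that break down all main polymers of plant cell walls. They secrete hydrolases and oxidative enzymes that act on cellulose and hemicelluloses, and peroxidases and laccases that act on lignin, and the transcription of many such genes depends on the carbon source. Pine is a softwood, in which cellulose is embedded in lignin and in hemicelluloses rich in mannan, whereas Avicel is a purified cellulose with next to none of these. Aspen is a hardwood and wheat straw a grass, both with xylan as their main hemicellulose, and maltose is a soluble sugar. The table identifies genes by number and does not pair the numbers with names or functions, so no role can be given to any gene below, and no substrate label could be checked by a marker gene.

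The deposited table holds 1 mean per substrate, from which the whole reads of single libraries could be recovered for 878 of 878 genes on pine and 741 of 878 (84.4%) on cellulose, where 118 values above level 13 were too high to solve. Libraries are lettered A to C within a substrate by falling depth, and these letters cannot be matched to the replicate numbers in the labels. Depth relative to the table's scaling was 0.952 and 0.646 in the pine libraries, against 1.18, 1.14 and 1.04 in the cellulose libraries, within a range of 0.646 to 1.3 over all 14. The recovered genes held 2921286 and 2168150 reads in the pine libraries, against 963701, 971641 and 823739 in the cellulose libraries, where the most abundant genes are missing from the sum. Over the 708 genes with reads in all 5 libraries, the pine libraries had a Pearson correlation of 0.991 with each other, and the 3 pairs of cellulose libraries 0.976 to 0.987. The 6 pairs of a pine and a cellulose library had 0.844 to 0.873. Genes, over which these were computed, are not independent of each other. The median SD between libraries over these genes was 0.118 on pine and 0.224 on cellulose, on the log2 scale.

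The comparison of pine with cellulose asks which genes change when the fungus meets wood in place of purified cellulose. Of the 845 genes, 121 (14.3%) were higher on pine and 144 (17%) lower, and 580 (68.6%) were called in neither direction. A gene was called when its limma adjusted p (Benjamini-Hochberg) was under 0.05 and its log2 difference at least 1. By limma adjusted p alone, 257 were higher and 226 lower. Only 1 gene with a difference of at least 1 was not called, so the size of the difference decided nearly all calls. Over all 867 genes tested, 14.1% were called higher and 16.8% lower; the 845 genes are nearly all of these, and their shares are close to those of the whole table. Over all 845 genes, the median log2 difference of pine minus cellulose was 0.08, with 457 genes above 0 and 388 below. Each library was also shifted to a common median over the genes recovered in every library, which lowered pine against cellulose by 0.14. The counts were then 98 higher and 167 lower, and the median difference over the 845 genes was -0.06. Of the 10 genes that reached level 4 on pine alone, 7 were called higher, and of the 10 that did so on cellulose alone, 4 were called lower; the level rule itself favours these directions.

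The median fall was larger than the median rise. Among the 121 genes that rose, the median log2 difference was 1.43 (quartiles 1.20 and 2.26), a 2.69-fold higher level, and 41 genes differed by at least 2, 15 by at least 3 and 4 by at least 5. Among the 144 genes that fell, the median was -2.09 (quartiles -3.08 and -1.35), a 4.25-fold lower level, and 77 genes differed by at least 2, 39 by at least 3 and 10 by at least 5. Of the genes that fell, 60 had no recovered cellulose reads, as had 10 of those that rose and 137 of all 845, so their standard errors rest on the spread on other substrates. On the 708 genes with reads in all 5 libraries, 111 were higher and 84 lower, so the excess of falls lay among the genes without recovered cellulose reads. The sizes of rises and falls were not tested against each other.

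**Figure D1:**
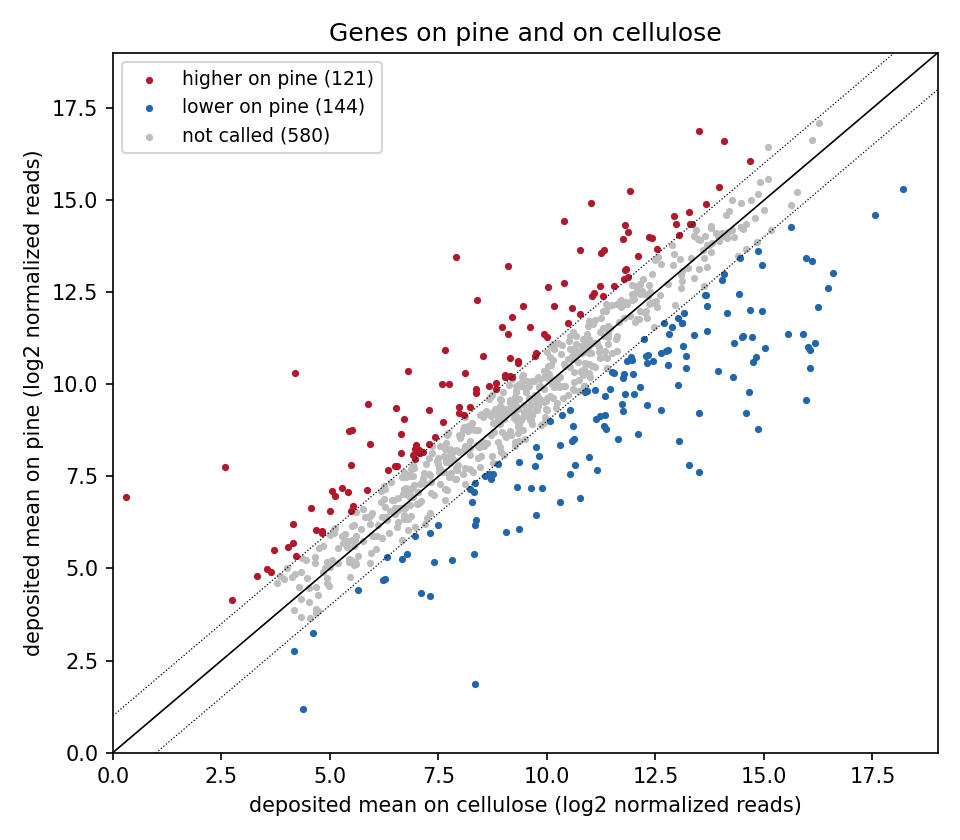
Level on pine (vertical axis) against level on cellulose (horizontal axis) for 845 genes, both as deposited means of log2(normalized reads + 1). The solid line marks equal levels and the dotted lines a difference of 1; the 121 genes higher on pine lie above the upper dotted line, and the 144 lower on pine spread farther from the lower one, most of all at the right where cellulose levels are high.

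Rises and falls were unevenly spread over the range of levels. Taking the mean of the pine and cellulose levels, 30 of 168 genes (17.9%) between 6 and 8 were higher on pine and 15 (8.93%) lower. Between 8 and 10 the counts were close, at 24 higher and 26 lower of 214 genes. Between 12 and 14, 24 of 127 genes (18.9%) were higher and 37 (29.1%) lower, and at 14 and over 5 of 46 (10.9%) were higher and 10 (21.7%) lower. Falls therefore outnumbered rises in each class from level 8 upwards, and rises outnumbered falls below it.

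**Figure D2:**
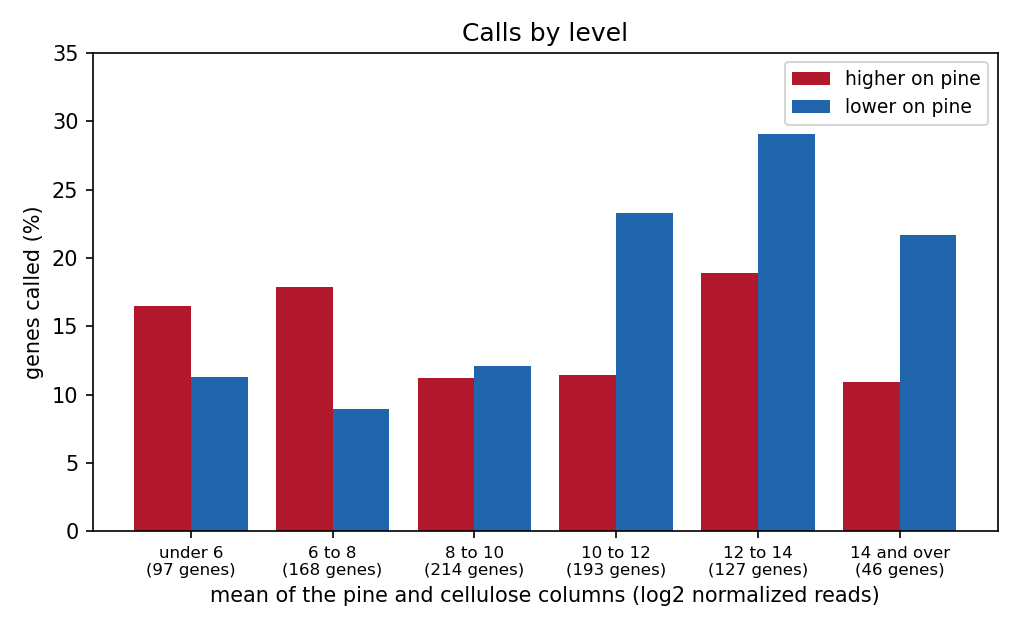
Percentage of genes called higher (red) or lower (blue) on pine than on cellulose, by the mean of the pine and cellulose levels; the number of genes in each class stands under its bars. The bars for lower genes reach 29.1% at levels 12 to 14, against 8.93% at levels 6 to 8.

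Most of the 20 most abundant transcripts on cellulose were among those that fell, a direction that ranking by the cellulose level favours. Of the 20 genes with the highest level on cellulose, at 15.16 to 18.19, 15 were lower on pine, 0 were higher and 5 were not called. Over all tested genes, 16.8% were called lower and 14.1% higher. All 20 lie above level 13, so none had recovered cellulose reads, and their standard errors rest on the spread on other substrates. Their median level was 13.19 on pine, 13.59 on aspen, 14.31 on wheat straw, 16.06 on cellulose and 7.29 on maltose. Of the 20 genes with the highest level on pine, at 14.74 to 17.11, 7 were higher on pine than on cellulose, 1 was lower and 12 were not called, and their median level was 15.28 on pine and 14.78 on cellulose. Ranking by the pine level favours rises in the same way. Most of the leading genes on cellulose were called, whereas most of the leading genes on pine were not.

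The same genes can be described by their shares of reads, although the choice of the genes fixes the direction between pine and cellulose. When the deposited means were turned back into normalized reads and summed over the 845 genes, the 121 genes that rose held 28.6% of the reads on pine, 25.8% on aspen, 21.1% on wheat straw, 5.56% on cellulose and 9.92% on maltose. The 144 genes that fell held 10.2% on pine, 24.1% on aspen, 23.8% on wheat straw, 53.3% on cellulose and 19.8% on maltose. A few genes carried much of this: the 8 most abundant genes that rose held most of their share on pine, and the 11 most abundant that fell held most of theirs on cellulose. The most abundant gene that fell had 6.97% of the reads on cellulose, with levels of 15.30 on pine and 18.19 on cellulose (log2 difference -2.89 ± 0.19, SE; limma adjusted p = 1.298e-05; no recovered cellulose reads). Without it, the genes that fell held 9.03% of the reads on pine and 49.8% on cellulose. Reads were set against the genes of this table only, so a larger share of one group lowers that of the others.

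The same shares could be followed in single libraries over the 708 genes with reads in all 5, which leaves out most of the leading genes on cellulose. The genes that rose (111 of them here) held 40% and 41.9% of the reads in the pine libraries, against 15.3%, 13.6% and 12.1% in the cellulose libraries. The genes that fell (84 here) held 4.8% and 4.59% in the pine libraries, against 18.5%, 21.2% and 22.2% in the cellulose libraries. For neither class did the shares of pine and cellulose libraries overlap, a separation that the choice of the genes fixes.

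Among genes with a level of at least 6 on both substrates and reads in all 5 libraries, genes 998652 and 976644 had the largest rises. Gene 998652 had 9308 and 13752 normalized reads in the pine libraries, against 228, 271 and 224 in the cellulose libraries. Both pine libraries lay far above every cellulose library, and the log2 difference was 5.55 ± 0.18 (SE; limma adjusted p = 1.33e-08). Its levels of 13.30 on aspen and 13.36 on wheat straw did not differ from 13.47 on pine by the test (limma adjusted p = 0.478 and 0.682). Its aspen and wheat straw reads were not recovered, so these tests take their spread from the other substrates. The maltose libraries had 264, 224 and 226 normalized reads. The gene was thus high on the 3 lignocelluloses and low on both cellulose and maltose.

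Gene 976644 had 9611 and 9519 normalized reads in the pine libraries, against 572, 508 and 582 in the cellulose libraries, a log2 difference of 4.11 ± 0.85 (limma adjusted p = 0.00286). The groups did not overlap and varied little within themselves. The large standard error is pooled over substrates and takes in maltose, where library B had 2329 normalized reads against 193 and 250 in the other two; with the pine and cellulose libraries alone, limma's adjusted p was 5.17e-06. Levels on aspen (13.23) and wheat straw (13.25), where its reads were not recovered, were next to that on pine (13.22).

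Genes 1111559 and 964724 had the largest falls by the same rule. Gene 1111559 had 122 and 116 normalized reads in the pine libraries, against 2758, 1431 and 1339 in the cellulose libraries, a log2 difference of -3.86 ± 0.35 (limma adjusted p = 1.01e-06). It was lower on pine than on every other substrate, with levels of 6.91 on pine, 8.35 on aspen, 9.84 on wheat straw, 10.77 on cellulose and 9.62 on maltose, and it was called in all 4 comparisons. Gene 964724 had 117 and 104 normalized reads in the pine libraries, against 1263, 2109 and 770 in the cellulose libraries, a log2 difference of -3.52 ± 0.37 (limma adjusted p = 3.84e-06). Its level of 6.79 on pine stood beside 7.46 on aspen and 7.04 on wheat straw, neither of which passed the test against pine, and far below 10.74 on maltose. For both genes each pine library lay below each cellulose library.

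The largest fitted differences of all involved genes with almost no reads on one substrate. The gene with the largest rise had 102 and 88 reads in the pine libraries, against 0, 1 and 0 in the cellulose libraries, and 1, 0 and 0 in the maltose libraries. It had more on wheat straw and aspen, at levels of 9.32 and 8.51 against 6.93 on pine. The gene with the largest fall had 4 and 1 reads in the pine libraries, against 342, 373 and 369 in the cellulose libraries, and 3, 4 and 4 in the aspen libraries. Fitted differences of 6.62 and -6.48 for these genes depend on the 1 added inside the logarithm.

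**Figure D3:**
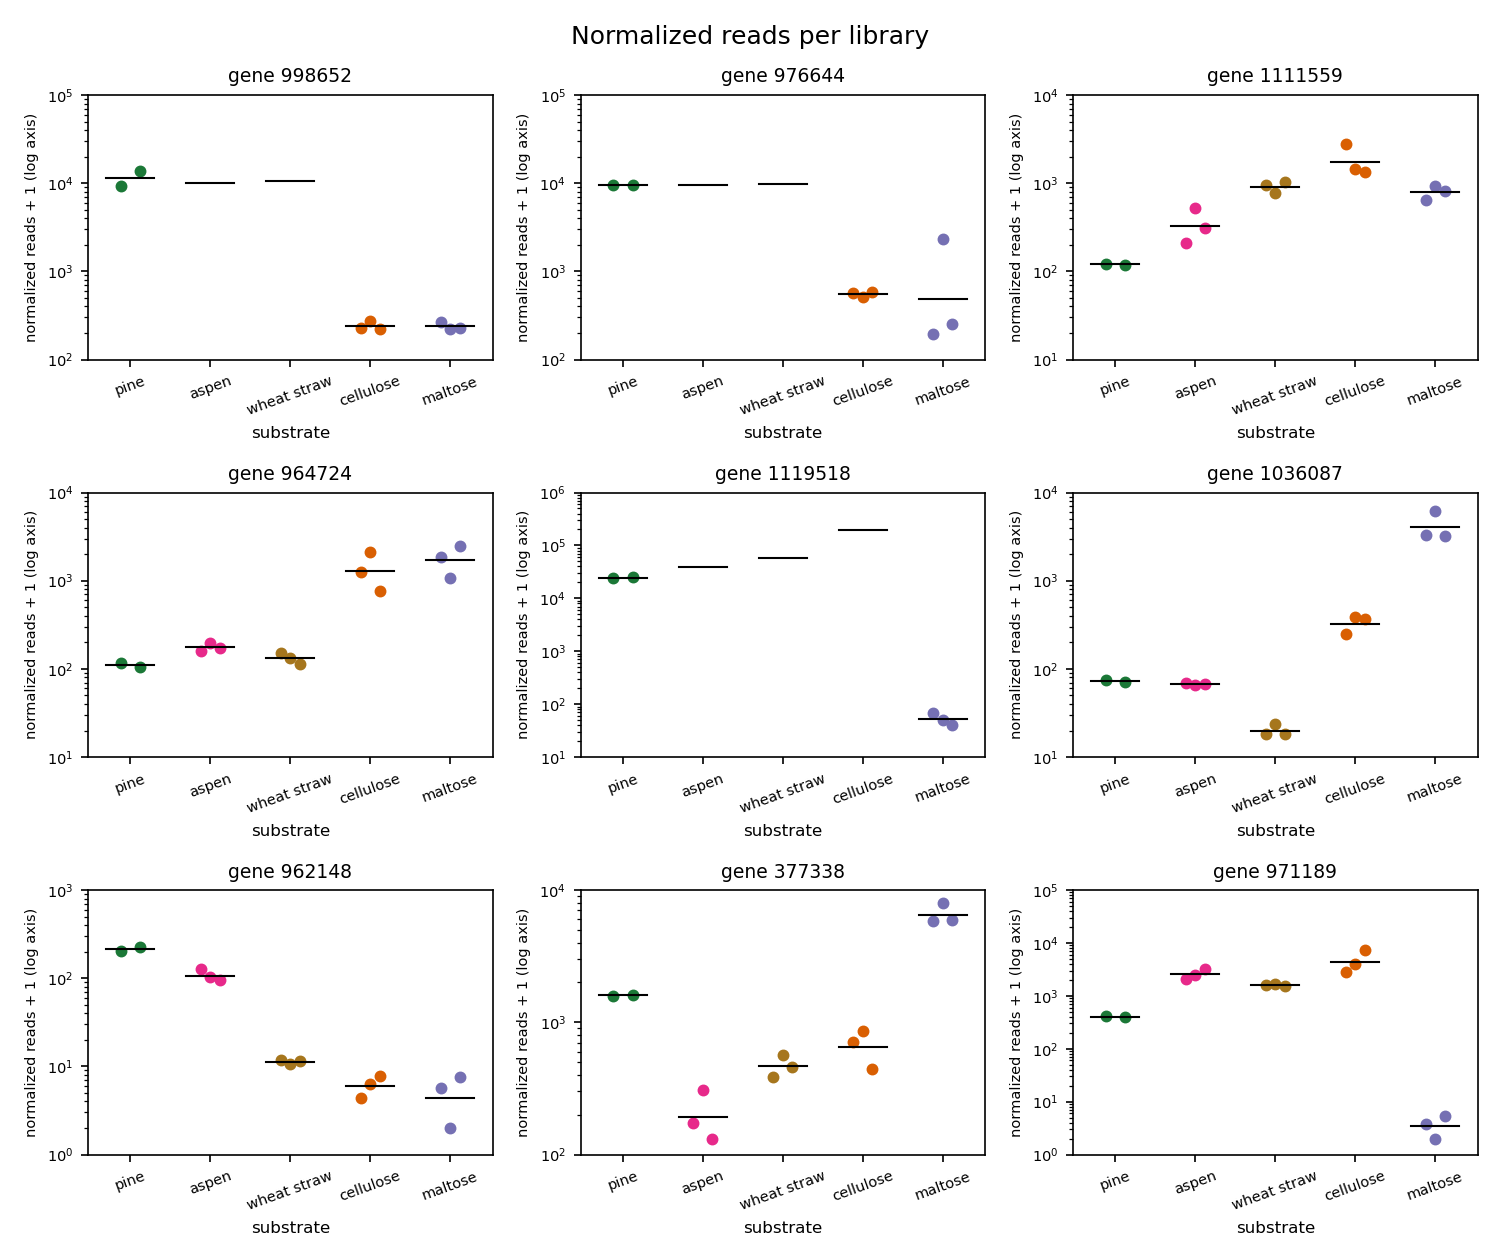
Normalized reads + 1 per library (points, logarithmic axis) and deposited mean (horizontal bar) for 9 genes on pine, aspen, wheat straw, cellulose and maltose; where a bar has no points, the reads of single libraries could not be recovered. Genes 998652, 976644 and 962148 lie higher on pine than on cellulose by log2 differences of 5.55, 4.11 and 5.17, and genes 1111559, 964724 and 971189 lie lower by -3.86, -3.52 and -3.44.

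The genes that rose on pine stood mostly between their pine and cellulose levels on the other lignocelluloses, and on maltose went both ways from their cellulose level. Their median levels were 10.22 on pine, 9.71 on aspen, 9.34 on wheat straw, 8.39 on cellulose and 8.22 on maltose. Of the 121 genes, 83 lay between their pine and cellulose levels on aspen and 82 on wheat straw, and 23 and 26 were at or beyond the pine level. On maltose, 54 were at or beyond the cellulose level, 56 lay between and 11 were at or beyond the pine level. In all, 73 genes (60.3%) were nearer to pine than to cellulose on aspen, 63 (52.1%) on wheat straw and 30 (24.8%) on maltose, beside 56.1%, 47.1% and 43.8% of all 845 genes. Pine gave the highest of the 5 levels for 72 of the 121, wheat straw for 21, aspen for 18 and maltose for 10. The lowest level was on cellulose for 53 (43.8%) and on maltose for 50 (41.3%), beside 14% and 38.9% of all 845 genes. Pine was highest for 24.6% of all 845 genes, and the choice of the genes favours pine as the highest and cellulose as the lowest.

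Most of the genes that fell on pine were highest on cellulose, and fewer were lowest on pine than on maltose or on aspen. Their median levels were 9.75 on pine, 9.77 on aspen, 10.75 on wheat straw, 11.95 on cellulose and 8.56 on maltose. Of the 144 genes, 89 lay between their pine and cellulose levels on aspen and 115 on wheat straw, and 52 and 17 were at or beyond the pine level, which here means as low or lower. In all, 120 (83.3%) were nearer to pine than to cellulose on aspen, 85 (59%) on wheat straw and 95 (66%) on maltose. Cellulose gave the highest level for 103 of the 144 (71.5%) and maltose for 31 (21.5%), beside 20.7% and 26.5% of all 845 genes. The choice of the genes favours cellulose as the highest and pine as the lowest. The lowest level was on maltose for 66 (45.8%), on aspen for 38 (26.4%), on pine for 32 (22.2%) and on wheat straw for 8 (5.56%). Over all 845 genes these shares were 38.9%, 26.4%, 10.2% and 10.5%.

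**Figure D4:**
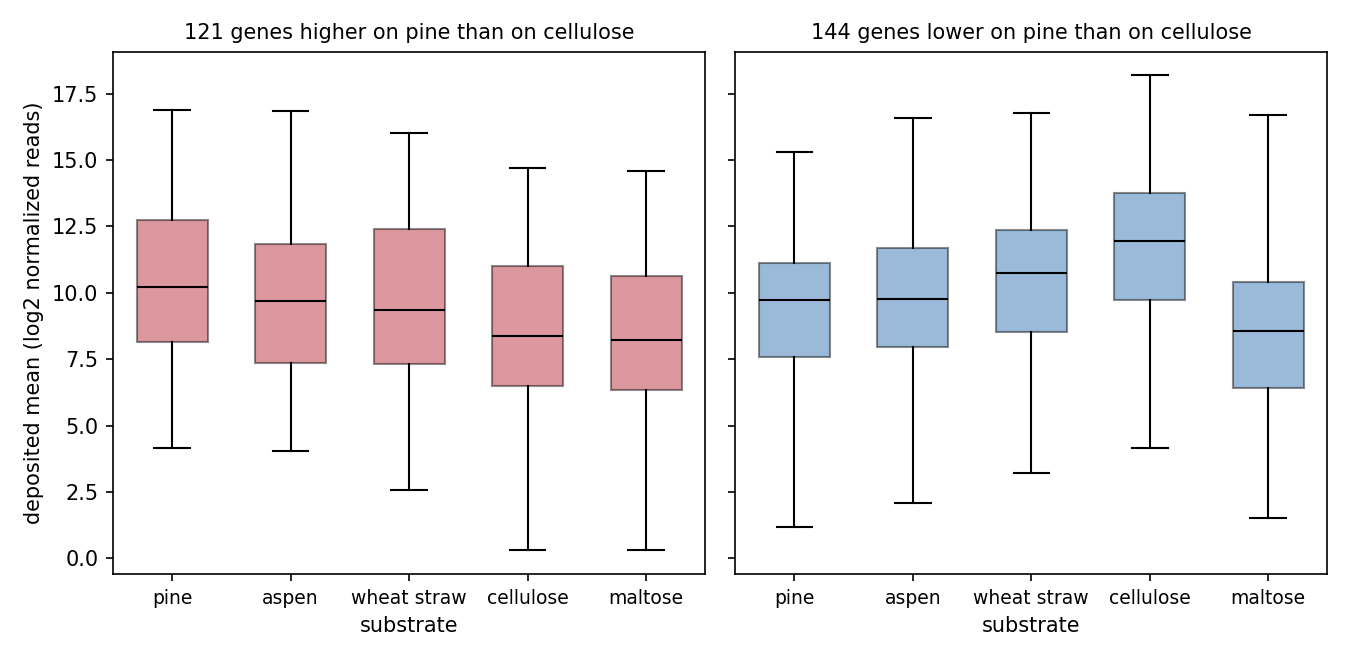
Levels (deposited means of log2 normalized reads) on the 5 substrates of the 121 genes higher on pine than on cellulose (left) and the 144 lower (right); boxes show quartiles, the inner line the median and whiskers the lowest and highest gene. The median of the left group is 9.71 on aspen and 9.34 on wheat straw, between 10.22 on pine and 8.39 on cellulose; that of the right group is 11.95 on cellulose and at most 10.75 on the other substrates.

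Tests of pine against the other substrates use the pine libraries that also chose these genes, so their counts are given side by side and support nothing about each other. Against aspen, 37 of the 121 genes that rose were higher on pine, 5 were lower and 79 were not called, beside 16.5% of all tested genes called higher and 7.27% lower. Against wheat straw, 44 were higher, 5 lower and 72 not called, beside 7.38% and 9.8% of all tested genes. Against maltose, 77 were higher, 6 lower and 38 not called, beside 29.5% and 18%. The genes that fell included 12 higher on pine than on aspen, 36 lower and 96 not called. Of the same genes, 1 was higher on pine than on wheat straw, 66 were lower and 77 were not called. Of the genes that rose, 44 (36.4%) were called against neither lignocellulose, and of those that fell, 61 (42.4%), beside 65.5% of all tested genes.

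Some genes stood apart on pine or on cellulose from every other substrate. Of the genes that rose, 5 were called higher on pine than on each of the 4 other substrates, and of the genes that fell, 4 were called lower than on each. Cellulose was called lowest against all 4 others for 7 of the genes that rose and highest against all 4 for 51 of those that fell. Over all 867 tested genes these are 0.577% and 0.461% for pine and 0.807% and 5.88% for cellulose; a gene can only be counted here if it was called between pine and cellulose, so nothing is read from these shares. With the cellulose libraries shared, the genes that fell were lower on aspen than on cellulose in 120 cases and higher in 0, and lower on wheat straw in 85 and higher in 0; over all tested genes, 24.5% were lower and 10% higher on aspen, and 12% lower and 8.65% higher on wheat straw. The genes that rose were higher on aspen than on cellulose in 57 cases and lower in 2, and higher on wheat straw in 54 and lower in 0. On cellulose against maltose, 91 of the genes that fell were higher and 15 lower, and 30 of those that rose were higher and 29 lower, beside 26% and 16.7% of all tested genes. A gene that misses the threshold here is not shown to have the same level on both substrates.

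Maltose divided the genes that fell. The maltose cultures lacked the solid and had more soluble sugar than the pine cultures, and these cannot be told apart. Of the 144 genes, 57 (39.6%) were higher on pine than on maltose, beside 29.5% of all tested genes. Their median levels were 10.91 on pine, 11.50 on aspen, 12.26 on wheat straw, 13.38 on cellulose and 6.72 on maltose. Another 46 (31.9%) were lower on pine than on maltose, beside 18% of all tested genes. Their medians were 7.96 on pine, 8.31 on aspen, 8.79 on wheat straw, 10.33 on cellulose and 10.68 on maltose. The choice of the genes fixes that both sets were lower on pine than on cellulose, and how pine stood against maltose. The aspen and wheat straw medians lay between pine and cellulose in both sets. A choice of genes low on pine and high on cellulose favours such a place, so nothing is read from it. The remaining 41 had medians of 8.79 on pine, 11.23 on cellulose and 8.59 on maltose. Of the genes that rose, the 77 higher on pine than on maltose had medians of 10.78 on pine, 8.67 on cellulose and 7.92 on maltose.

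Single genes show these patterns at their widest. Among called genes with reads recovered on pine and on the substrate compared, gene 1119518 had the largest excess of pine over maltose, with 23844 and 25442 normalized reads in the pine libraries, against 68.4, 48.4 and 40.2 in the maltose libraries (log2 difference 8.89 ± 0.23, SE; limma adjusted p = 2.25e-08). Its level was higher still on cellulose, at 17.57 against 14.59 on pine, although its cellulose reads were not recovered. Gene 1036087 stood at the other end, with 74.6 and 69.6 normalized reads in the pine libraries, against 3277, 6138 and 3215 in the maltose libraries (log2 difference -5.78 ± 0.27; limma adjusted p = 1.08e-09). Cellulose lay between, with 247, 383 and 362, and wheat straw below pine, with 17.3, 22.9 and 17.1. The libraries of pine, wheat straw, cellulose and maltose did not overlap for this gene.

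By the same rule, gene 962148 had the largest excess of pine over wheat straw, with 203 and 228 normalized reads in the pine libraries, against 10.9, 9.53 and 10.5 in the wheat straw libraries (log2 difference 4.26 ± 0.44, SE; limma adjusted p = 2.28e-05). Aspen, with 125, 103 and 93.5, was closer to pine (limma adjusted p = 0.073), and cellulose had 3.39, 5.28 and 6.75. The gene's level was thus higher on both woods than on wheat straw, cellulose and maltose. At 7.75 on pine and 6.74 on aspen, it stayed below the medians of all 845 genes there (9.40 and 9.27). The cellulose libraries had only 4, 6 and 7 reads of it, so its difference from cellulose depends on the 1 added inside the logarithm. The largest deficit against wheat straw by this rule was that of gene 1111559, at -2.93 ± 0.35 (limma adjusted p = 4.74e-05).

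Among called genes with reads recovered on both woods, pine and aspen differed most at genes 377338 and 971189. Gene 377338 had 1577 and 1611 normalized reads in the pine libraries, against 174, 306 and 130 in the aspen libraries (log2 difference 3.06 ± 0.33, SE; limma adjusted p = 9.67e-06). Its difference of pine minus cellulose was smaller, at 1.30 ± 0.33 (limma adjusted p = 0.00446), and its highest level was on maltose, at 12.67. Gene 971189 had 412 and 392 normalized reads in the pine libraries, against 2115, 2513 and 3259 in the aspen libraries (log2 difference -2.69 ± 0.39; limma adjusted p = 9.5e-05). It had 2858, 3934 and 7391 in the cellulose libraries and 2.77, 1.01 and 4.34 in the maltose libraries. In both genes the pine libraries lay clear of the aspen libraries and of the cellulose libraries.

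Comparisons among aspen, wheat straw and maltose use no pine or cellulose library and do not depend on how the genes were chosen, apart from the common estimate of spread; those with maltose share its libraries. On wheat straw against maltose, 55 of the 121 genes that had risen on pine (45.5%) were higher and 15 (12.4%) lower, and 71 of the 144 that had fallen (49.3%) were higher and 34 (23.6%) lower. Over all 867 tested genes, 28.3% were higher and 19.3% lower. On aspen against maltose, 55 of the risen genes (45.5%) were higher and 10 (8.26%) lower, and 56 of the fallen (38.9%) were higher and 49 (34%) lower, beside 23.3% and 22.8% of all tested genes. Among the 81 fallen genes called with reads in every library, 19.8% were higher and 44.4% lower on aspen than on maltose, and 33.3% were higher and 32.1% lower on wheat straw than on maltose. In these 81, lower calls outnumbered higher ones on aspen against maltose, and both were close on wheat straw against maltose. The 91 risen genes with reads in every library had 42.9% higher and 8.79% lower on aspen than on maltose, and 38.5% higher and 14.3% lower on wheat straw. Shares over all genes with reads in every library were not computed, so no excess or lack of calls can be read for the 81 or the 91.

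The fallen genes that were called between aspen and wheat straw mostly went one way. Of the 144, 2 (1.39%) were higher on aspen than on wheat straw and 44 (30.6%) lower, beside 6.23% and 17.2% of all tested genes, and their median difference was -0.43 against -0.18 over all tested genes. Of the 121 risen genes, 21 (17.4%) were higher and 20 (16.5%) lower, with a median difference of -0.07. Where called, the risen genes thus went both ways and the fallen genes mostly down on aspen, but most of the fallen genes were not called. Over all tested genes, lower calls also outnumbered higher ones, and these shares were not tested against the whole table.

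**Figure D5:**
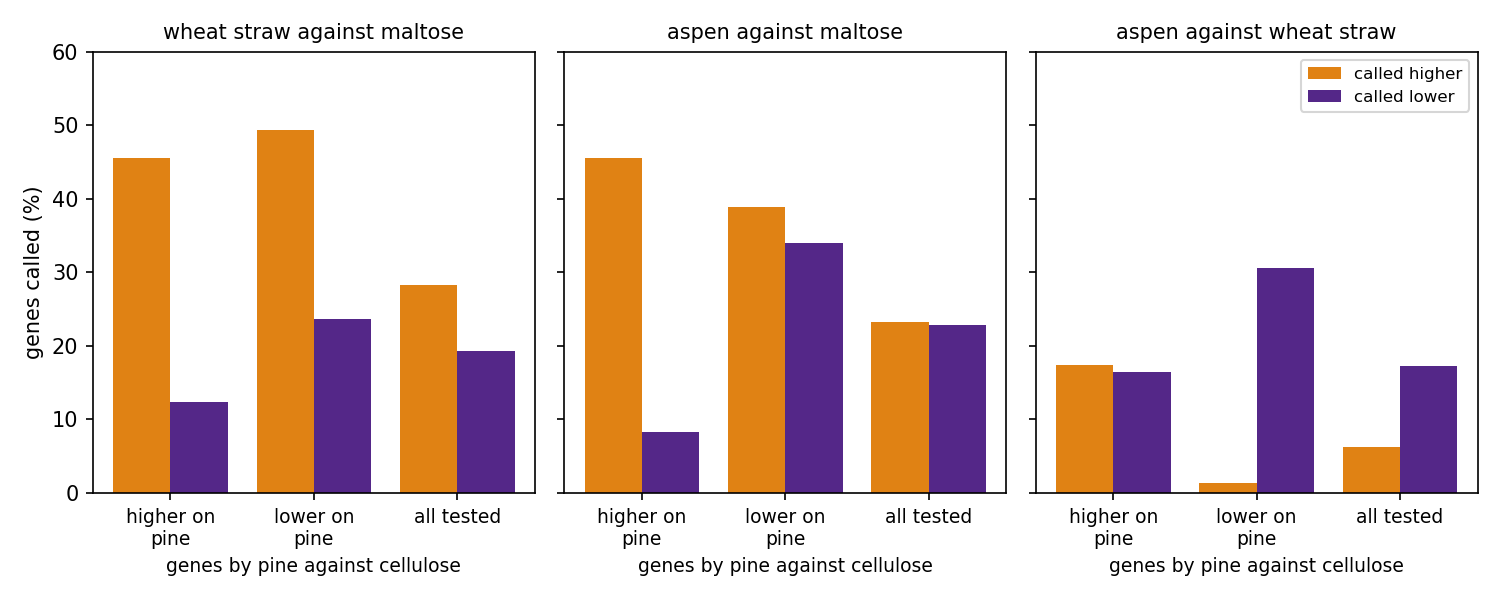
Percentage of genes called higher (orange) and lower (purple) in 3 comparisons that use no pine or cellulose library, for genes higher on pine than on cellulose (121), genes lower on pine (144) and all 867 tested genes. On wheat straw against maltose 45.5% of the genes higher on pine are higher, against 28.3% of all tested genes; on aspen against wheat straw 30.6% of the genes lower on pine are lower, against 17.2%.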

How the data were processed

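The deposited table gives log2 normalized read counts, 1 column per substrate, per the file headers. Reads were processed with TopHat2, HTSeq and DESeq 1.5, per the submitters' processing notes; the settings, the genome build and the way the 878 genes were chosen were not given in the sources used here. The deposited values were modelled as means over libraries of log2(count × factor + 1). The factors were found from the lowest values, and whole reads were then searched that give each value (15 significant digits). The absolute error allowed in the log2 value was 4e-14 below level 10 and 8.5e-14 (3 libraries) or 1.1e-13 (2 libraries) above. A library could differ from the mean by up to 6 to level 8 and throughout in pine, by 4 to level 10, 3 to 11, 2 to 12 and 1 to 13. Of 4390 values, 3956 (90.1%) had exactly 1 solution, 61 had several, 6 none, and 367 were too high. Decoy values that should have no solution were given exactly 1 in 1 of 694 cases (up to level 11, or pine) and in 36 of 400 (levels 11 to 13). These limits were set after seeing the residuals and before any test. Library totals are unknown, and precision covers counting error and the spread between recovered libraries only.

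Differences are those of the deposited means. Their errors come from 1 linear model over 14 libraries with 1 mean per substrate, fitted after limma 3.58.1 (R 4.3.3) with moderated variances and a mean-variance trend; residual degrees of freedom ran from 1 to 9, and a substrate without recovered reads was assumed to vary like the others. The 867 genes that reached a log2 value of 4 in 2 or more libraries were tested two-sided, and p was adjusted by Benjamini-Hochberg per comparison. The fit was tested on simulated data. The recovery used Python 3.11.15, NumPy 2.4.6 and numba 0.67.0.

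The genes described, the lists and the tests were chosen with earlier results of these data known. Genes named by number are those with the largest rises and falls between pine and cellulose among called genes with a level of at least 6 on both and reads in all 5 libraries (2 each way). Added to these are, for each other substrate, the called genes with the largest positive and negative difference of pine minus that substrate (1 each way), among genes also called in that comparison and with reads recovered on pine and on that substrate. The genes with the largest fitted differences of all are given without number. Lists of enzyme families were not used, since gene numbers are not paired with functions. Alternatives changed the value inside the logarithm, the scaling, the genes and libraries used, the trend, the test and the thresholds, and left out single libraries.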

Additional observations from a re-analysis of the deposited data

How the results depend on the processing

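The number of genes called higher on pine was 121, and ran from 85 to 124 except where the threshold itself was changed: an adjusted p alone gave 257 higher and 226 lower, and a log2 difference of at least 2 gave 41 and 77. The 144 genes called lower stayed at 135 to 167 as long as genes without recovered cellulose reads were kept. Where the method needs those reads, the count fell because fewer genes were tested: 81 with genes recovered in every library, 89 with quantile normalization of these, 84 with only the pine and cellulose libraries, 84 in the 14-library fit of genes with reads in all 5 (an alternative chosen after seeing the data) and 81 with voom weights. Leaving out 1 library gave 96 to 124 higher and 79 to 139 lower. In these alternatives no called gene changed direction. Single genes were followed at the main thresholds only, for 11 of those described, without the most abundant gene that fell. All 175 values of these 11 genes kept their direction and their side of the threshold. With a margin of 1 around the pine level, the genes that rose and stood at or beyond it numbered 81 on aspen, 74 on wheat straw and 42 on maltose, and those that fell 106 on aspen and 76 on wheat straw. Among genes recovered in every library, 19.8% of those that fell were higher on aspen than on maltose and 44.4% lower, beside 38.9% and 34% of all of them. No paired analysis was possible because the recovered libraries carry no replicate numbers of the labels. Depth limits the lowest levels, where a few reads separate the substrates, and recovery limits the highest, where the spread on cellulose is not known.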
